A study of Caenorhabditis elegans with 2 samples.

Results

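The mitochondrial ribosomal protein genes of *C. elegans* are described here in single embryonic cells, from Wild Type and from *spr-5; met-2* mutants. Members were all genes in the feature lists with a symbol that starts with mrpl- or mrps-. This gave 71 of 20191 genes, 42 with mrpl- and 29 with mrps-. The rule uses no measured value.

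The mitochondrial ribosome, or mitoribosome, is a separate translation machine inside mitochondria. It makes the few proteins that mitochondrial DNA (mtDNA) encodes, all of them subunits of the oxidative phosphorylation complexes. Its RNAs come from mtDNA, while its proteins come from nuclear genes, are made in the cytosol and are imported. In *C. elegans*, knockdown of single mitoribosomal proteins such as MRPS-5 in larvae is known to induce the mitochondrial unfolded protein response and to extend life span. MET-2 and its partner LIN-65 are known to take part in the chromatin changes of that response.

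The study asked how inherited histone methylation alters transcription in the embryo. SPR-5 removes methyl groups from H3K4 and MET-2 adds them to H3K9. Transcripts of embryos grown to about the 100-200 cell stage were counted with a 10x Genomics 3' kit, in 1 library from Wild Type (N2, the laboratory strain without either mutation) and 1 from animals carrying *spr-5*(b101) on chromosome I together with *met-2*(n4256) on chromosome III. The mutants were progeny of homozygous mutant mothers, so that both maternal and zygotic copies were mutated. Mothers of both genotypes were starved at L1 and bleached as young adults, and each library pooled the cells of many embryos.

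The 219 Wild Type cells held 1013190 UMIs, which are counted transcript tags, with a median of 2086 per cell. The 686 mutant cells held 732058 UMIs with a median of 726.5. In Wild Type 18 barcodes with over 10000 UMIs held 48.6% of the UMIs, and no mutant barcode was that large. Both libraries shared 11 cell barcodes. The targeted genes were detected in both libraries, *spr-5* at 81.9 CPM (counts of UMIs scaled to the same library total) in Wild Type and 54.6 CPM in the mutants, and *met-2* at 63.2 and 27.3 CPM. A 3' tag does not show whether the transcript carries the mutation, so these levels do not check the labels. With 1 library per genotype, genotypes and libraries cannot be told apart, no test of the genotypes is possible, and every interval below is a 95% interval that covers counting error only.

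The mitoribosomal protein genes were a broadly detected group. The 67 members with at least 20 UMIs in both libraries together had a median of 81 UMIs. The median of all 6839 genes that reached 20 UMIs was 93. All 71 were detected in both libraries. In Wild Type their levels ran from 2.96 to 90.8 CPM with a median of 40.5 CPM, and in the mutants from 1.37 to 91.5 CPM with a median of 36.9 CPM. The 8 most abundant members made up 20.4% of the group in Wild Type and 21.8% in the mutants, so no small set of genes made up the sum. Each 3' tag stands for a transcript whatever its length, and levels of different genes were therefore not divided by length.

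The most abundant members came from both subunits. *mrpl-14*, whose bacterial counterpart lies at the face between the subunits, was at 80.9 CPM in Wild Type and 91.5 CPM in the mutants, a ratio of mutants over Wild Type of 1.13 (0.806 to 1.58). *mrpl-15*, a large subunit protein, was at 90.8 and 75.1 CPM. *mrps-5*, the small subunit gene best known from life span studies, was at 78.0 and 82.0 CPM with a ratio of 1.05 (0.739 to 1.49). The other 5 of the 8 most abundant, *mrps-18C*, *mrps-16*, *mrpl-38*, *mrpl-40* and *mrpl-49*, had ratios from 0.692 for *mrpl-40* to 1.10 for *mrpl-38*. The interval of each of these 8 genes spanned 1. At the other end 4 members had fewer than 20 UMIs in both libraries together and were not counted further as single genes. These were *mrpl-42* with 4 UMIs, *mrpl-46* with 13 and *mrpl-21* and *mrpl-45* with 18 each.

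**Figure D1:**
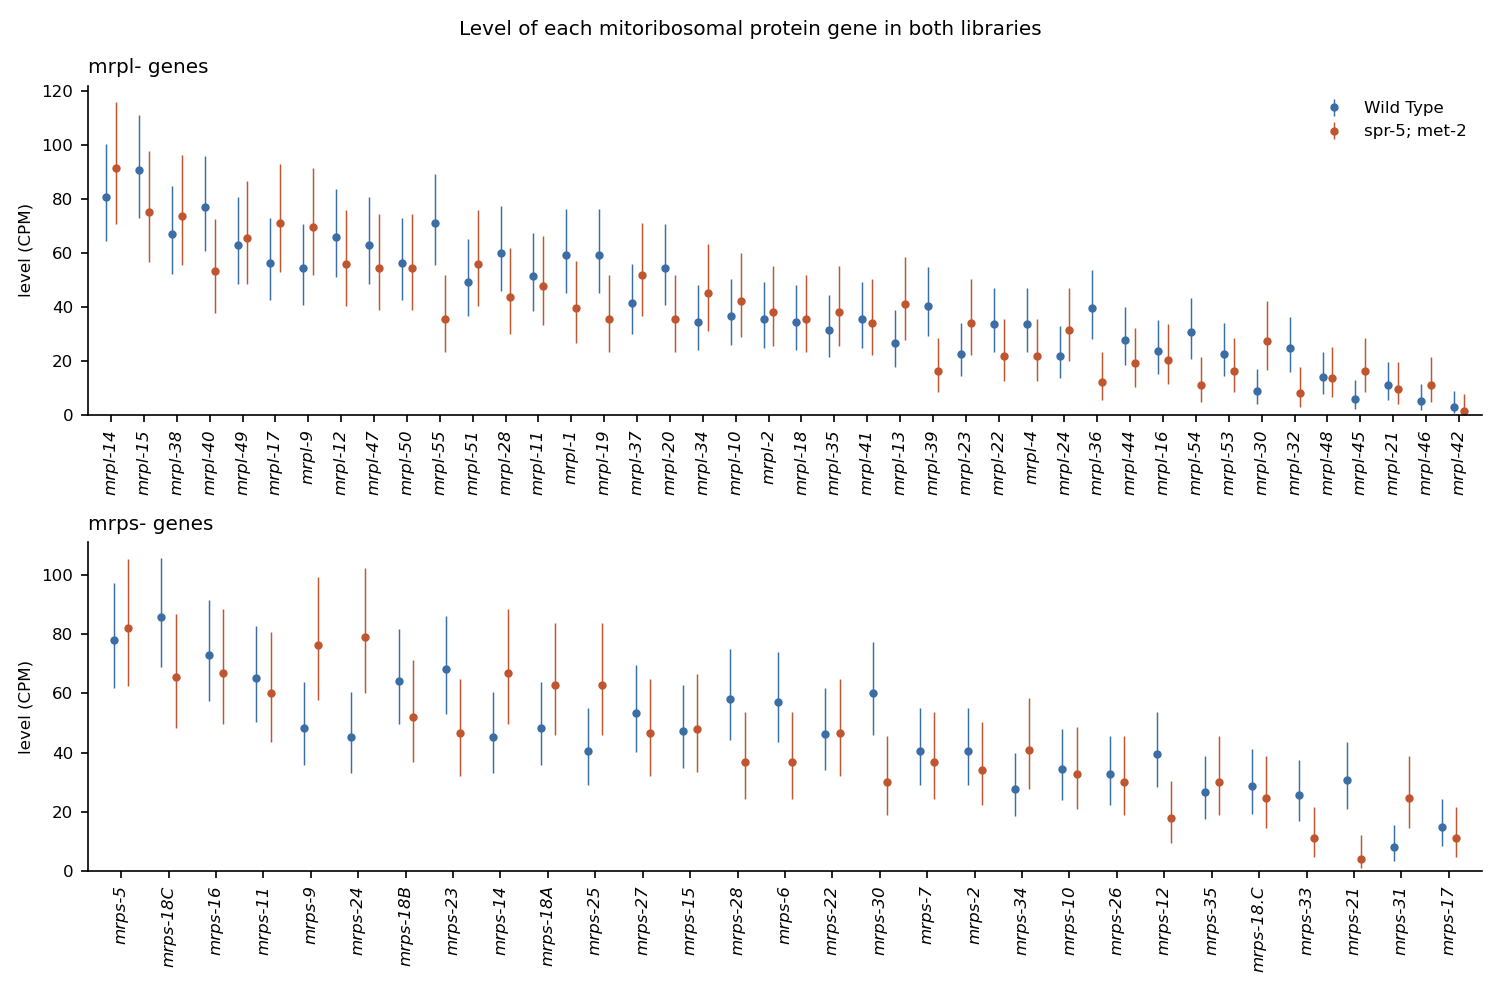
Level of each of the 71 members in CPM, ordered by the mean of both libraries, for Wild Type (blue) and spr-5; met-2 mutants (orange), with 95% Poisson intervals as lines. Most members of both panels lie under 60 CPM and most pairs of intervals overlap, while mrps-21 and mrpl-36 lie lower in the mutants.

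Summed over all members, the group was slightly lower in the mutants. The sum was 3059 CPM (2952 to 3168) in Wild Type, from 3099 UMIs, and 2841 CPM (2721 to 2966) in the mutants, from 2080 UMIs. Their ratio was 0.929 (0.878 to 0.982). Without the 18 large Wild Type barcodes the ratio was 0.938 (0.878 to 1.002) and its interval reached 1. The typical gene of these libraries lay on the other side of 1. The median log2 ratio of the 67 members with at least 20 UMIs was -0.12, and that of all 6839 genes with at least 20 UMIs was 0.27. Of the members 51 of 67 (76.1%) lay under the median of all genes, against 50% of all genes by definition, and 40 of 67 (59.7%) lay under a log2 ratio of 0, against 36.6% of all genes. How far the sum lay under 1 therefore depended on the scale. Scaling by the median of ratios in place of total UMIs shifted every log2 ratio by -0.27 and gave 0.772 (0.730 to 0.817). The difference between the medians of the members and of all genes, -0.39, is the same on both scales, since scaling moves every gene alike. It changed with the filter, to -0.57 at 5 or more UMIs and -0.20 at 100 or more. The median of all genes was 0.45 and 0.08 at these filters. The difference also did not hold at each transcript length, as given with the lengths.

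Single members seldom stood apart by more than counting error. The counting interval lay above 1 for 4 of 67 members (5.97%), against 34% of all 6839 genes tested. It lay below 1 for 10 of 67 members (14.9%), a share close to the 13.7% of all genes. By the size of the ratio, the share of members was smaller than that of all genes on the high side and larger on the low side. A log2 ratio over 0.25 was seen for 16 members (23.9%) against 51.1% of all genes, and one under -0.25 for 25 members (37.3%) against 24% of all genes. A log2 ratio over 1 was seen for 2 members (2.99%) against 20.9% of all genes, and a log2 ratio under -1 for 9 members (13.4%) against 5.35% of all genes.

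**Figure D2:**
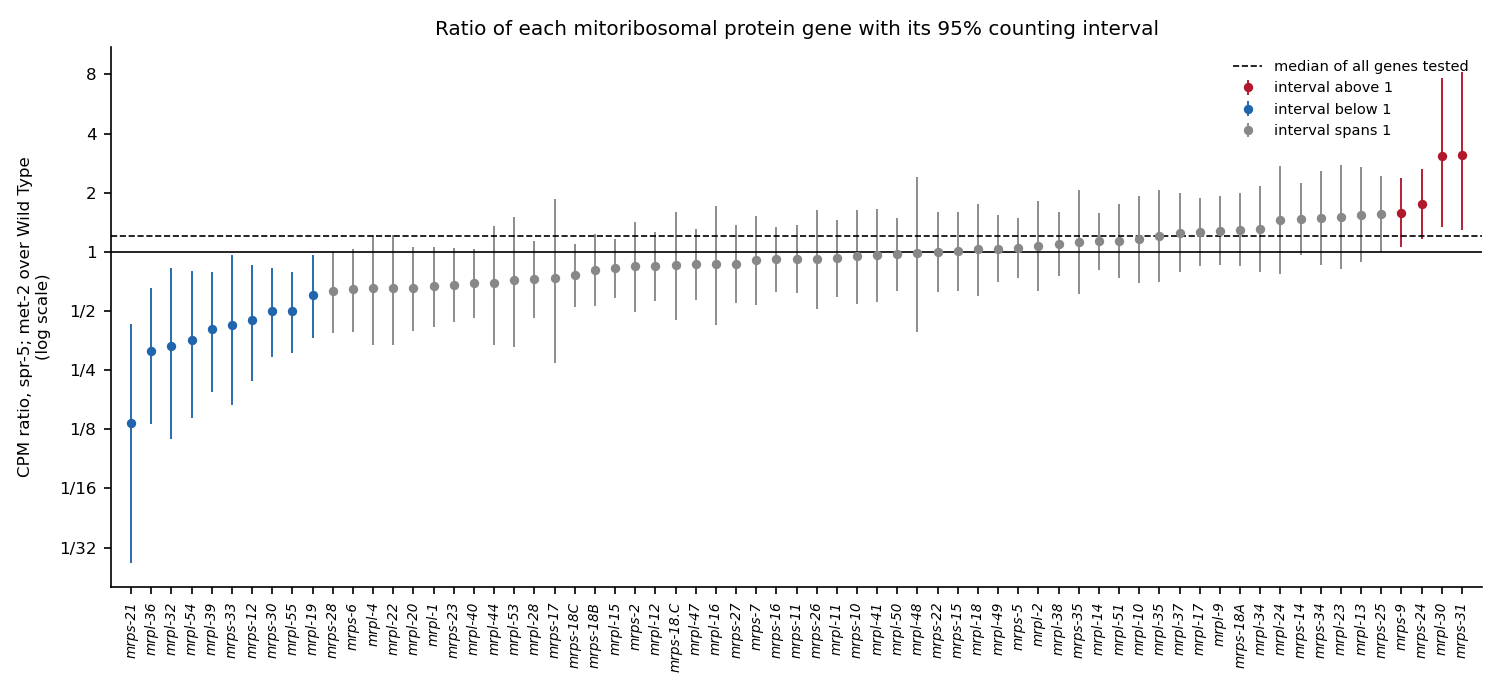
CPM ratio of spr-5; met-2 mutants over Wild Type for the 67 members with at least 20 UMIs, on a log scale, with exact 95% counting intervals. Red points have an interval above 1 (4 genes), blue points below 1 (10 genes) and grey points span 1 (53 genes), and the dashed line is the median of all 6839 genes tested.

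Among the members with an interval below 1 were several small proteins with bacterial counterparts. *mrps-21*, a short protein of the small subunit with a bacterial counterpart, had the lowest ratio. It was counted 31 times in 28 Wild Type cells and 3 times in 3 mutant cells, 30.6 and 4.10 CPM, a ratio of 0.134 (0.0262 to 0.429). The gene has 2 exons on chromosome IV from 4659049 to 4659517 (ce11), and its longest transcript has 416 bases. *mrpl-36*, a small large-subunit protein with a bacterial counterpart, was at 39.5 and 12.3 CPM, with a ratio of 0.311 (0.133 to 0.652). *mrps-12*, whose bacterial counterpart forms part of the decoding centre, was at 39.5 and 17.8 CPM, with a ratio of 0.450 (0.221 to 0.858). All of these lay below 1 with and without the large Wild Type barcodes.

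Other genes with an interval below 1 encode parts of both subunits. *mrpl-32*, whose protein is known in mouse to be cut to its mature form by the m-AAA protease, was at 24.7 and 8.20 CPM (ratio 0.332). *mrpl-19*, a large subunit protein with a bacterial counterpart, was at 59.2 and 35.5 CPM (0.600). The remaining 5 are known as mitochondria-specific proteins from their human counterparts. They were *mrpl-54* at 30.6 and 10.9 CPM, *mrpl-39* at 40.5 and 16.4 CPM, *mrpl-55* at 71.1 and 35.5 CPM, *mrps-33* at 25.7 and 10.9 CPM, and *mrps-30* at 60.2 and 30.1 CPM, with ratios from 0.357 for *mrpl-54* to 0.4998 for *mrpl-55*. Despite its name, the human counterpart of *mrps-30* sits in the large subunit. Without the large barcodes the intervals of *mrpl-19*, *mrpl-32*, *mrpl-39* and *mrpl-54* spanned 1, and that of *mrps-28* (ratio 0.633, or 0.386 to 1.01 in all cells) came to lie below 1.

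The 4 members with an interval above 1 were *mrps-24*, *mrps-9*, *mrpl-30* and *mrps-31*. *mrps-24*, the counterpart of a bacterial protein at the entry of the mRNA channel, was counted 46 times in Wild Type and 58 times in the mutants, 45.4 and 79.2 CPM, a ratio of 1.75 (1.16 to 2.63). *mrps-9*, a small subunit protein whose bacterial counterpart reaches towards the tRNA, was at 48.4 and 76.5 CPM, with a ratio of 1.58 (1.06 to 2.37). *mrpl-30* of the large subunit was at 8.88 and 27.3 CPM, with a ratio of 3.08 (1.34 to 7.67) from 9 and 20 UMIs. *mrps-31*, a mitochondria-specific protein of the small subunit, was at 7.90 and 24.6 CPM, with a ratio of 3.11 (1.29 to 8.28) from 8 and 18 UMIs. These intervals lay above 1 also without the large barcodes, where *mrpl-13* and *mrps-25* joined them. The other genes among the 8 highest by the log2 ratio of CPM + 10, which lowers the rank of genes with few counts, were *mrps-14*, at 45.4 and 66.9 CPM, and *mrps-34*, at 27.6 and 40.98 CPM, and their intervals spanned 1.

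Few single calls were left in settings with fewer UMIs, where wider intervals leave fewer calls in any case. When 500 UMIs were drawn from each cell, 22 members kept at least 20 UMIs, and 0 had an interval above 1 and 1 below, against 17.8% and 10.2% of the 3593 genes counted in that setting. Among cells of 500 to 2000 UMIs in both libraries 42 members kept 20 UMIs, again with 0 above and 1 below, against 21.4% and 9.79% of 4534 genes. In the barcodes with at most 200 UMIs, which hold mostly RNA free in the suspension and none of the cells, 0 of the 10 members called below 1 in cells had an interval below 1 and 5 had a ratio under 1. Of all genes counted there 9.7% had an interval below 1 and 27.2% above. There *mrps-21* was at 22.9 CPM in Wild Type and 23.7 CPM in the mutants. Of the members called above 1 in cells 3 were counted there, and 1 of them, *mrps-24*, had an interval above 1 again, at 58.2 and 90.9 CPM.

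Grouped by subunit, neither part of the mitoribosome stood apart from the other. The large subunit, with 44 genes, was at 1833 CPM in Wild Type and 1671 CPM in the mutants, with a ratio of 0.912 (0.847 to 0.980). The small subunit, with 26 genes, was at 1197 and 1146 CPM, a ratio of 0.957 (0.876 to 1.05), and these intervals overlap. Subunits were taken from the human protein of the same number, and *mrps-18.C* was left unplaced. The 44 genes with a bacterial counterpart had a ratio of 0.944 (0.882 to 1.01), and the 26 mitochondria-specific genes 0.900 (0.815 to 0.994). The order of these classes turned without the large Wild Type barcodes, where they were at 0.921 and 0.969. *dap-3*, a GTPase of the small subunit that lacks the prefix, was counted 25 and 19 times with a ratio of 1.05 (0.548 to 1.99).

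Transcript length moved with these ratios. The longest annotated transcripts of the members had a median of 747 bases (309 to 2164), against 1156 bases over the protein-coding genes of the files. Among the 14 tested members of at most 600 bases 6 had an interval below 1 and 1 above, and their summed ratio was 0.741 (0.637 to 0.859). Among all 558 genes of that length 57.2% had an interval below 1, and their median log2 ratio was -0.74 against -0.51 for the members. Members over 600 bases summed to a ratio of 0.966 (0.909 to 1.03), with 4 of 53 intervals below 1 and 3 above. Of all 6270 genes over 600 bases 9.84% lay below 1 and 36.2% above. The 10 members called below 1 had a median length of 524 bases, the 4 called above 1018 bases, and the other 53 771 bases. Over genes, length and the log2 ratio of CPM + 10 had a Spearman correlation of 0.18 for the 67 members and 0.36 for 6828 genes. These points share the same pair of libraries. The median of the 23 members of 600 to 800 bases was -0.02 against -0.06 for all genes of that length, so in both bins up to 800 bases the members lay no lower than other genes. At 800 to 1000 bases the medians were -0.21 for 10 members and 0.06 for all genes, and at 1000 to 1500 bases they were near 0 for 15 members and 0.23 for all genes. The 5 members over 1500 bases, at a median of -0.53, lay apart from all genes of that length at 0.47. The part of length in the members' ratios was not tested.

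**Figure D3:**
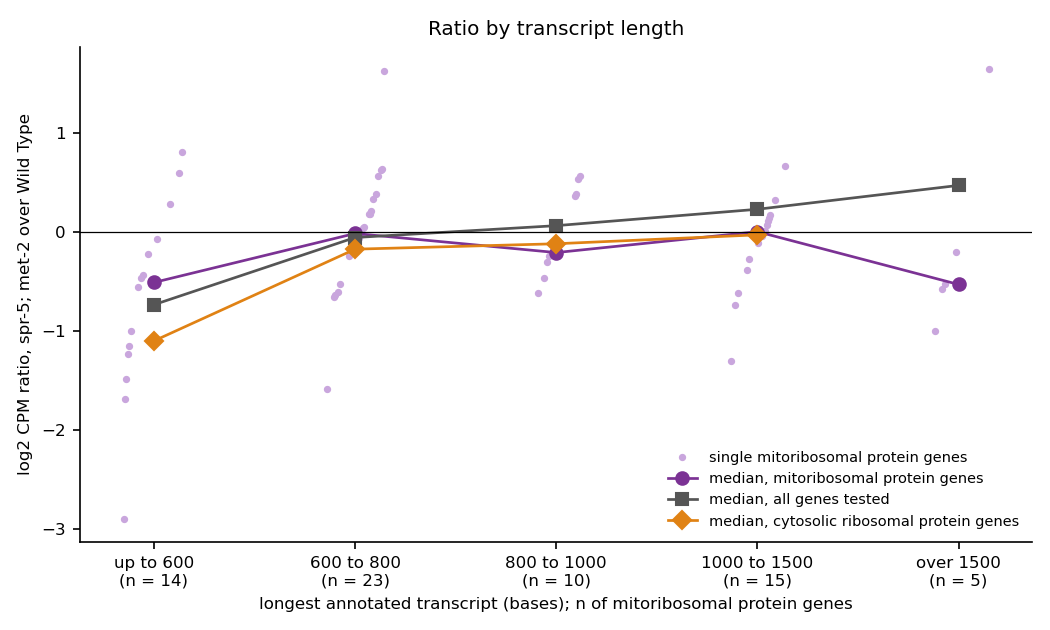
Log2 CPM ratio of spr-5; met-2 mutants over Wild Type against the length of the longest annotated transcript in 5 bins. Small dots are single mitoribosomal protein genes, spread sideways by their rank, and lines join the medians of these genes, of all genes tested and of cytosolic ribosomal protein genes, which are lowest at up to 600 bases in all but the mitoribosomal protein genes, where the 5 genes over 1500 bases are as low.

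In the genome the members lay on the autosomes. Chromosome III held 22 of the 71 and chromosome I held 15, together 52.1% against 27.6% of protein-coding genes. Chromosome X held 0 members and 13.6% of protein-coding genes. A gene on the same strand within 500 bases stood beside 43 members (60.6%), against 31.4% of protein-coding genes, a spacing typical of *C. elegans* operons, although operon annotation was not used here. Members with such a neighbour summed to a ratio of 0.961 (0.891 to 1.04) and the other 28 to 0.892 (0.821 to 0.969), which overlap.

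Neighbours did not always share a member's ratio. *mrps-2* and *mrpl-4*, the only pair of members that close, lay 105 bases apart on chromosome V and were at ratios of 0.844 (0.492 to 1.42) and 0.651 (0.336 to 1.21). *mrps-22*, a mitochondria-specific protein of the small subunit, followed *dap-3* at the same distance of 105 bases, at ratios of 1.001 and 1.05. *mrps-21* followed *F29B9.11* at 113 bases, and both were lower in the mutants, *F29B9.11* at 0.337 (0.279 to 0.405) from 591 and 144 UMIs. *mrps-30* lay 109 bases after *cdc-26*, which was at 2.102 (1.26 to 3.55), the other way from *mrps-30* at 0.499. *mrps-5* followed *sel-1* at 103 bases, with *sel-1* at 1.98 (1.43 to 2.76) and *mrps-5* at 1.05.

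The mtDNA-encoded proteins and the mitochondrial translation factors and tRNA synthetases had higher summed ratios than the members. The 12 mtDNA-encoded proteins, which the mitoribosome makes, were at 7403 CPM in Wild Type and 21702 CPM in the mutants, a ratio of 2.93 (2.85 to 3.01), with 11 of 12 intervals above 1 and 0 below. Their most abundant transcripts were *nduo-6*, a complex I subunit at 2819 and 3851 CPM, and *ctc-3*, a cytochrome c oxidase subunit at 682 and 3971 CPM. With these genes and the cytosolic ribosomal protein genes taken out of the totals, the members' summed ratio was 0.907 (0.858 to 0.959). Mitochondrial translation factors and tRNA synthetases, with 14 of 18 listed genes in the files, summed to 1.24 (1.09 to 1.41). Of the 12 with at least 20 UMIs 3 had an interval above 1 (*ears-2*, *gfm-1* and *tufm-2*) and 0 below, where 34% of all genes lay above. Scaled by the median of ratios the sum was 1.03 (0.909 to 1.17), and its interval included 1. Genes of mtDNA maintenance and transcription were at 0.957 (0.789 to 1.16), an interval that included the members' 0.929.

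The nuclear partners of the mtDNA-encoded proteins lay lower in the mutants, as the mitoribosomal proteins did. The 41 nuclear oxidative phosphorylation genes in the files held 11555 and 9516 CPM, which gave a ratio of 0.824 (0.799 to 0.848), with 17 intervals below 1 and 4 above. Mitochondrial import genes summed to 0.772 (0.687 to 0.867), with 6 intervals below 1 and 1 above. These 6 had transcripts of 288 (*tomm-7*) to 471 bases (*tomm-22*). The oxidative phosphorylation genes below 1 ran from 281 (*ucr-11*) to 2444 bases (*nuo-5*). Of all genes tested 13.7% lay below 1, and of those up to 600 bases 57.2%. The part of length in these sums was not tested. Cytosolic ribosomal proteins, the counterparts of the members outside mitochondria, held 103755 and 67933 CPM, which gave a ratio of 0.655 (0.648 to 0.662), with 65 of 80 intervals below 1 and 8 above. All 48 of them with transcripts of at most 600 bases lay below 1. Genes of the mitochondrial unfolded protein response and its proteases summed to 1.29 (1.11 to 1.49), with *dve-1*, *lin-65* and *spg-7* above 1 and *ubl-5* below. These 3 of 10 above 1 compare with 34% of all genes, and scaled by the median of ratios the sum was 1.07 (0.926 to 1.24), an interval that included 1. *dve-1*, a homeodomain protein of that response, was counted 5 times in Wild Type and 38 times in the mutants.

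**Figure D4:**
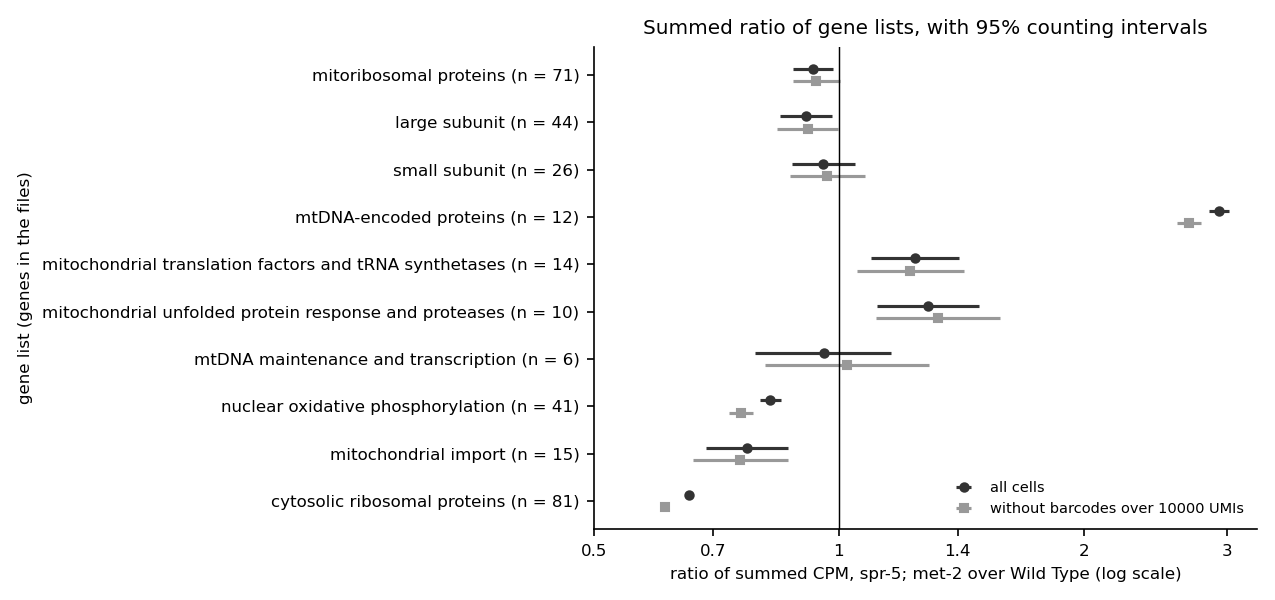
Ratio of summed CPM, spr-5; met-2 mutants over Wild Type, for the mitoribosomal proteins, both subunits and other gene lists, on a log scale with exact 95% counting intervals. Dark points use all cells and grey squares leave out the 18 Wild Type barcodes over 10000 UMIs. The mitoribosomal sum at 0.929 lies between the mtDNA-encoded proteins at 2.93 and the cytosolic ribosomal proteins at 0.655.

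The members' levels were also compared across cell clusters made without them. The cells fell into 16 clusters, of which 11 could be named from marker genes. Over the 12 mutant clusters with at least 20 cells, the spread of a gene's counts was set against that expected if its level were the same in every cluster (chi-square per degree of freedom, where 1 is counting error alone). The median was 1.05 over the 50 members with at least 20 UMIs in them, 1.60 over 5280 genes, 1.36 over nuclear oxidative phosphorylation genes and 4.46 over cytosolic ribosomal proteins. These medians are not like for like, since the other genes were open to use in making the clusters and the members were not, and since more abundant genes reach higher values at the same relative spread. Of the members 3 of 50 (6%) exceeded 2, against 39.2% of all genes. They were *mrpl-14*, *mrps-15* and *mrps-5*. *mrpl-14* and *mrps-5* were highest in body wall muscle-like cluster 5, at 181 CPM (98.8 to 303) and 206 CPM (118 to 335).

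The same body wall muscle-like cluster had the highest summed level in the mutants. It was at 3884 CPM (3458 to 4349) in 77 mutant cells and at 3882 CPM in 38 Wild Type cells, a ratio of 1.001 (0.847 to 1.18). The hypodermis-like cluster was lower, at 2743 CPM in 28 Wild Type cells and 2618 CPM in 88 mutant cells, a ratio of 0.954 (0.832 to 1.09). The other body wall muscle-like clusters, with 1 and 0 Wild Type cells, were at 2571 CPM (2019 to 3227) and 1492 CPM (884 to 2358) in the mutants. The last of these, led by *mls-1*, *him-4* and *dig-1*, was the lowest of all clusters. Its name rests on 11 enriched body wall muscle markers. The marker *hlh-1*, enriched in cluster 5, was not among them. Neighbours in the order of the mutant levels overlapped within their intervals. Germline-like cells were at 3474 CPM (2617 to 4522), intestine-like cells at 3316 CPM, both neuron-like clusters at 3025 and 2779 CPM and early embryo-like cells at 2123 CPM, all with fewer than 10 Wild Type cells.

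Between genotypes, 5 clusters had 10 or more cells on both sides, and 1 of them had an interval off 1. The unnamed cluster 4, led by *spp-10*, *T08H10.1* and *zig-7*, was at 3384 CPM in 47 Wild Type cells and 2448 CPM in 28 mutant cells, a ratio of 0.724 (0.602 to 0.864). It held 8 of the 18 large Wild Type barcodes, and without them its ratio was 0.683 (0.555 to 0.836). Cluster 1, named other mesoderm-like, was at 0.942 (0.767 to 1.16), and the unnamed cluster 3 at 1.13 (0.968 to 1.32). With the same cluster weights in both genotypes, the members summed to 3108 CPM in Wild Type and 2999 CPM in the mutants, a ratio of 0.965 (0.895 to 1.04). Without cluster 4 it was 1.01 (0.927 to 1.09). Over these 5 clusters, with 195 Wild Type and 348 mutant cells, the interval of the sum thus included 1. The ratio of all cells also covers the other clusters, so it differs from 0.965 in the cells used as well as in the weights.

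**Figure D5:**
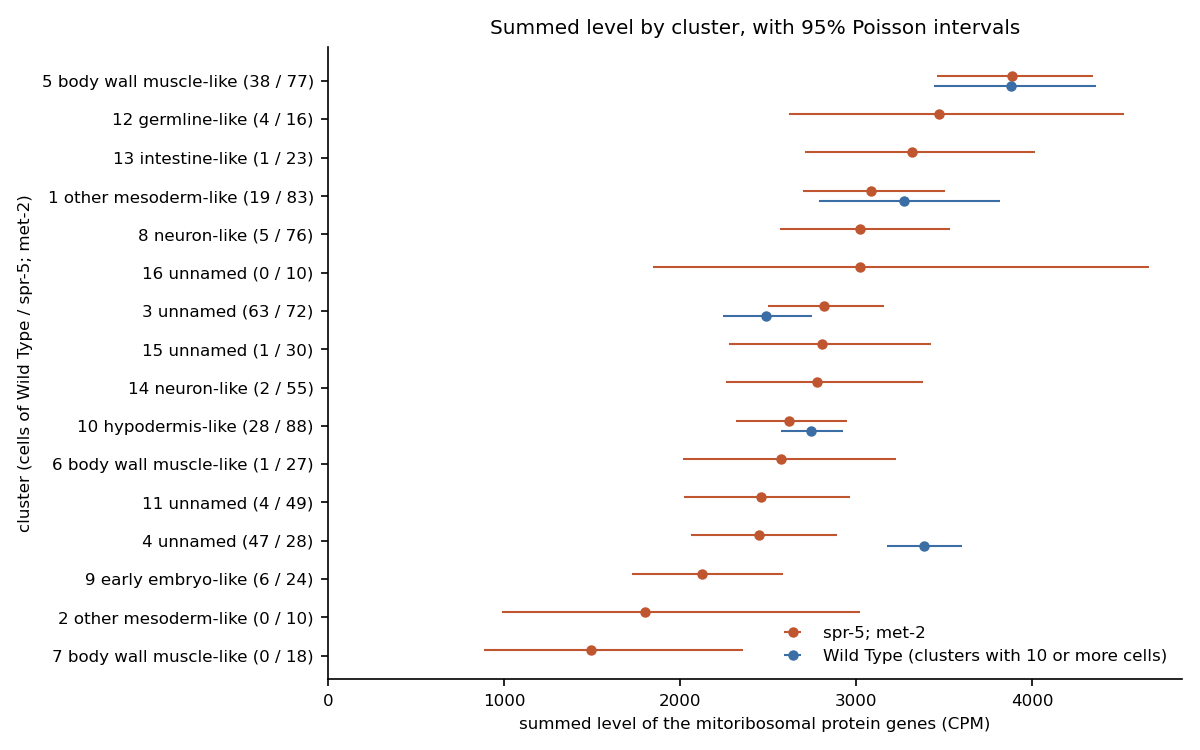
Summed level of the 71 members in CPM by cluster, for spr-5; met-2 mutants (orange) and, where a cluster held at least 10 cells, Wild Type (blue), with 95% Poisson intervals and cell numbers in parentheses. The intervals of both genotypes overlap in 4 of 5 clusters and not in cluster 4, at 3384 and 2448 CPM.

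In single cells the members were seen a few transcripts at a time. A Wild Type cell held a median of 7 member UMIs and a mutant cell 2. At least 1 was seen in 95.9% of Wild Type cells (92.3 to 98.1, Clopper-Pearson) and in 83.2% of mutant cells (80.2 to 85.96). With 500 UMIs drawn per cell, which left out 162 mutant cells, these shares were 73.5% (67.1 to 79.2) and 72.5% (68.5 to 76.3). The difference of the unthinned shares was thus not seen at equal depth. The variance of member UMIs over cells, where 1 time the mean is counting error alone, was 50.7 times the mean in Wild Type and 3.40 times in the mutants on all UMIs. With 500 UMIs drawn per cell it was 1.21 and 1.05 times the mean. No cell type is known to lack these genes, so no background share from such cells can be given. The barcodes with at most 200 UMIs held the members at 3223 CPM in Wild Type and 3589 CPM in the mutants, above the cells of each library, and how much of it the cells' counts hold was not measured. With an assumed 10% of each library's cell UMIs subtracted in the proportions of those barcodes, the summed ratio was 0.905 (0.852 to 0.960). Among cells of like depth the ratio was 0.929 (0.729 to 1.20) at 500 to 1000 UMIs, 0.905 (0.794 to 1.03) at 1000 to 2000, 0.957 (0.856 to 1.07) at 2000 to 5000 and 0.810 (0.598 to 1.08) at 5000 to 10000. Each ratio was under 1, and the intervals of these narrow bins included 1. All cells of 500 to 2000 UMIs gave 0.877 (0.785 to 0.981), which did not include 1. This ratio lies under those of both bins it joins, and depth was not matched within that range. The range held 290 mutant cells at 500 to 1000 UMIs and 149 at 1000 to 2000, against 29 and 74 Wild Type cells. The part of this mix in the value 0.877 was not tested.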

How the data were processed

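The deposited files hold unfiltered whole-number UMI counts per gene and barcode that the authors made from 10x 3' LT libraries. The submitters' notes name Cell Ranger 3.0.2, the ce11 build and Seurat. The annotation release behind the counts is not given in the sources used here. The barcodes with the highest totals were taken as cells, as many as the labels state, 219 in Wild Type (12230 barcodes) and 686 in the mutants (11991 barcodes).

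For each library the UMIs of a gene or list were added up and divided by all UMIs of the cells (CPM), with Poisson intervals. The ratio of mutants to Wild Type has an exact 95% interval from the binomial split of its UMIs. Single genes needed 20 UMIs in both libraries together. The interval at equal cluster weights used Poisson variances on a log scale. Members named are the 8 most abundant, the 8 with the highest and the 8 with the lowest log2 ratio of CPM + 10, and those whose interval lay on the other side of 1 than the sum. *mrps-33*, *mrpl-19* and *mrps-28*, some neighbouring genes and the most uneven members were named after their values were seen. The members, lists and markers were chosen with earlier results of these data known.

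Clusters were made in Scanpy 1.11.5 without the members (2000 variable genes, 20 principal components, 15 neighbours, Leiden resolution 1). A name needed at least 3 markers enriched 2 times, and the naming rule was set after seeing the data. Doublets were kept. Scrublet, at an expected rate of 4%, called 11 Wild Type cells (5.02%) and 2 mutant cells (0.292%). Positions and transcript lengths came from Ensembl release 115, which held all 71 members and 20105 of 20191 identifiers. Python 3.11.15, numpy 2.4.6, pandas 2.3.3, scipy 1.17.1 and matplotlib 3.10.9 were used, and the interval code was tested on simulated data. Alternatives changed the cells, the depth, the scaling, the gene filter, free RNA, doublets and clusters. Members over 600 bases and the clusters without cluster 4 were alternatives chosen after seeing the data.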

Additional observations from a re-analysis of the deposited data

Results flagged for a closer look

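The summed level of the mitoribosomal protein genes moved in opposite directions in a pair of clusters. The ratio of *spr-5; met-2* mutants over Wild Type was 0.724 (0.602 to 0.864) in the unnamed cluster 4 and 1.13 (0.968 to 1.32) in the unnamed cluster 3, whose interval included 1. The difference between these clusters was not tested, since each genotype had 1 library. Other lists differed between them too. In cluster 3 cytosolic ribosomal proteins were at 62593 CPM in Wild Type and 53698 CPM in the mutants, and in cluster 4 at 102621 and 55188 CPM. The mtDNA-encoded proteins were at 7430 and 11988 CPM in cluster 3, and at 7036 and 25968 CPM in cluster 4.

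The barcodes with at most 200 UMIs, which the comparisons of cells left out, held the members at a higher share in the mutants. There the summed ratio was 1.11 (1.05 to 1.18), where it was 0.929 in cells. Of 66 members with at least 20 UMIs 5 had an interval above 1, against 27.2% of genes, and 2 below 1, against 9.7%. Their median log2 ratio was 0.19 and that of all 6564 genes 0.32, so the members lay below the typical gene here as well. Over 65 members the log2 ratios in these barcodes and in cells had a Spearman correlation of 0.37. Both come from the same pair of libraries, so this is no replicate.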

How the results depend on the processing

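No paired analysis was possible because each genotype had 1 library and no replicate numbers were shared beyond that. The summed ratio, 0.929, stayed under 1 under all 11 alternatives run, from 0.772 to 0.966. Not all of their intervals did. The interval included 1 without the large barcodes (0.878 to 1.002) and with 500 UMIs drawn per cell (0.787 to 1.02). It also included 1 for members over 600 bases (0.909 to 1.03). The summed ratio left its main interval of 0.878 to 0.982 in cells of 500 to 2000 UMIs (0.877, 0.785 to 0.981) and when scaled by the median of ratios (0.772). That scaling also moved the median log2 ratio from -0.12 to -0.38, the members above 1 from 4 to 2 and those below 1 from 10 to 19. It moves all genes down alike, and their shares above and below 1 were not counted on that scale. These 2 counts therefore have no background to be read against. Counts of members above 1 were 0 with 500 UMIs drawn per cell, 0 in cells of 500 to 2000 UMIs and 2 among members with at least 100 UMIs. Counts below 1 were 1, 1 and 0 in the same order, of 22, 42 and 17 members tested, and 4 among members over 600 bases. Fewer UMIs or members were tested in these, so fewer intervals could leave 1. The share over all genes was not counted at 100 or more UMIs. Weighting each cell equally gave no counts, since it has no interval. The ratio at equal cluster weights, 0.965, was 1.04 with 500 UMIs drawn per cell and between 0.942 and 1.01 under the other alternatives. For the other lists, leaving out the large barcodes gave 2.70 for mtDNA-encoded proteins, 0.758 for nuclear oxidative phosphorylation and 0.611 for cytosolic ribosomal proteins. Scaling by the median of ratios gave 2.44, 0.685 and 0.544 for these, 1.03 (0.909 to 1.17) for translation factors and tRNA synthetases, 0.642 for import and 1.07 (0.926 to 1.24) for the unfolded protein response. The causes of these changes of value were not tested. Of the 24 named members 24 kept the sign of their log2 ratio with a pseudocount of 1 CPM, 23 without the large barcodes and 20 when scaled by the median of ratios. Depth limits all of this, since the median of the tested members was 81 UMIs over both libraries.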
